A study of Drosophila melanogaster with 2 samples.

Results

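The genes described here are 9 known or proposed targets of Atonal in sensory precursor cells: sens, phyl, sca, lqf, dap, TkR86C, nvy, insb and Brd. Peak values did not enter the rule that names them, although earlier results of these data were known when they were chosen. They are 9 of the 13968 protein-coding genes of the annotation. A peak was given to a gene when its summit lay inside the gene or when the gene had the nearest protein-coding start, and every other gene was treated in the same way. The study mapped Atonal by chromatin immunoprecipitation and sequencing (ChIP-seq) in whole Drosophila melanogaster embryos of the ato-GFP strain, aged 0 to 18 h. The flies were transgenic and expressed ato fused to enhanced GFP, and an antibody against GFP pulled the fusion protein down. There is 1 group of 2 biological replicates, so conditions cannot be compared. Whole embryos mix Atonal-expressing precursors with all other cells, and few cells with strong binding cannot be told apart from many cells with weak binding.

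Atonal belongs to the basic helix-loop-helix (bHLH) proteins called proneural, pairs with Daughterless and binds E-boxes, written CANNTG. Chordotonal organs, the stretch receptors of the fly, and the founding photoreceptors arise from precursors that it selects. The precursor then switches on genes that hold its fate, block Notch signalling within it and stop its neighbours from following. Several of the genes described here act at such steps, while dap acts on cell division and TkR86C encodes a neuropeptide receptor.

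The sequences below are from peaks at members lying on arms 3L and 3R. They are the strongest peak of the set (lqf), the part of the Brd peak upstream of its transcript, the strongest TkR86C peak, and at sens the strongest peaks upstream and downstream of the gene. They were read from the dm6 genome, 5′ to 3′ on the strand of each gene, with E-boxes and the word TATCGATA in capitals.
lqf, chr3L:7528351-7528473: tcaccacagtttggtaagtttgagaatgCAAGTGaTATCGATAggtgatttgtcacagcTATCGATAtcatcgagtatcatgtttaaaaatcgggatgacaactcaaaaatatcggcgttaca
Brd, chr3L:14972545-14972666: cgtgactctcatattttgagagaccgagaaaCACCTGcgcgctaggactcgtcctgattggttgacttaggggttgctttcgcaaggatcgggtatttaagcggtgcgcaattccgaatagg
TkR86C, chr3R:10752656-10752955: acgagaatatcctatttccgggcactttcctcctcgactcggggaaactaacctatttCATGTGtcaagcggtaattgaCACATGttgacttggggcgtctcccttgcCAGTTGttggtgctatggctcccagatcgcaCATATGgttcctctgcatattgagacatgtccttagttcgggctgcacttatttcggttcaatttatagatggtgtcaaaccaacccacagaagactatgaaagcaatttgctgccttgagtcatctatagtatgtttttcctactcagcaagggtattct
sens upstream, chr3L:13401593-13401892: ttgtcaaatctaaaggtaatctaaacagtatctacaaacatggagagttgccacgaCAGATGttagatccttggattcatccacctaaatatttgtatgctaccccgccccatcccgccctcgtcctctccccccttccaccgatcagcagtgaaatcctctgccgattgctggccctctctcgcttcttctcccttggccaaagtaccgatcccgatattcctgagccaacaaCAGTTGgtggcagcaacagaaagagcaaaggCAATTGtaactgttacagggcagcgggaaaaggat
sens downstream, chr3L:13395621-13395920: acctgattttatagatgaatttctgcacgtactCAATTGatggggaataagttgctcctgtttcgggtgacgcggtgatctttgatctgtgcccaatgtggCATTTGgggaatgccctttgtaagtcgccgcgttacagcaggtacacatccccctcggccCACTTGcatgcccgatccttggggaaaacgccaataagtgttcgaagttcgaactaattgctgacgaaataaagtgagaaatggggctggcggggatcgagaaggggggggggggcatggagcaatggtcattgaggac
The lqf peak held 1 E-box, CAAGTG, and 2 copies of TATCGATA. The Brd stretch held 1 E-box, CACCTG, the TkR86C stretch 4 and the sens stretches 3 each. Within 50 bp of the summit, the TkR86C and sens downstream peaks had 2 each, the Brd and sens upstream peaks none. The Brd stretch does not hold its peak's summit. Of these peaks only that of lqf was in the conservative list described below. No share over all genes is given for stretches of these lengths. Within 100 bp of their strongest summit, 67.0% of all genes had an E-box.

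The files give positions and a signal per peak, the authors' measure of peak strength, but no read counts, so the depth behind each value is unknown. The ranked list made from both replicates held 161563 peaks with a median signal of 17.8 over the chromosome arms. Each has an irreproducible discovery rate (IDR), which is low where a peak ranks high and alike in the sets compared. The conservative list, also made from both replicates, had 3009 peaks, a median signal of 88.6 and an IDR of at most 0.01. Low ranks here mean strong peaks. The lists of replicate 1 and replicate 2 alone held 2501 and 1737 peaks past the threshold. A control was not analysed here.

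At the target genes, reproducible Atonal peaks were found at lqf and phyl, and none of the other 7 genes had one. The share with a conservative peak was thus 2 of 9 (22.2%, 95% Wilson interval 6.32 to 54.7%, which covers the counting of genes only). Over all protein-coding genes it was 20.2%, close to that share. The 9 genes were chosen and not drawn at random, so the interval does not test the difference. In the second thresholded list made from both replicates only lqf had a peak, where 21.7% of all genes had a peak. The same single gene was found in the list of replicate 1 alone, which held a peak at 17.0% of genes, and in that of replicate 2 alone, which held one at 12.4%. At a looser IDR of at most 0.05, a limit chosen after the values were seen, dap and insb joined lqf and phyl. That made 4 of 9, beside 30.7% of all genes.

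**Figure D1:**
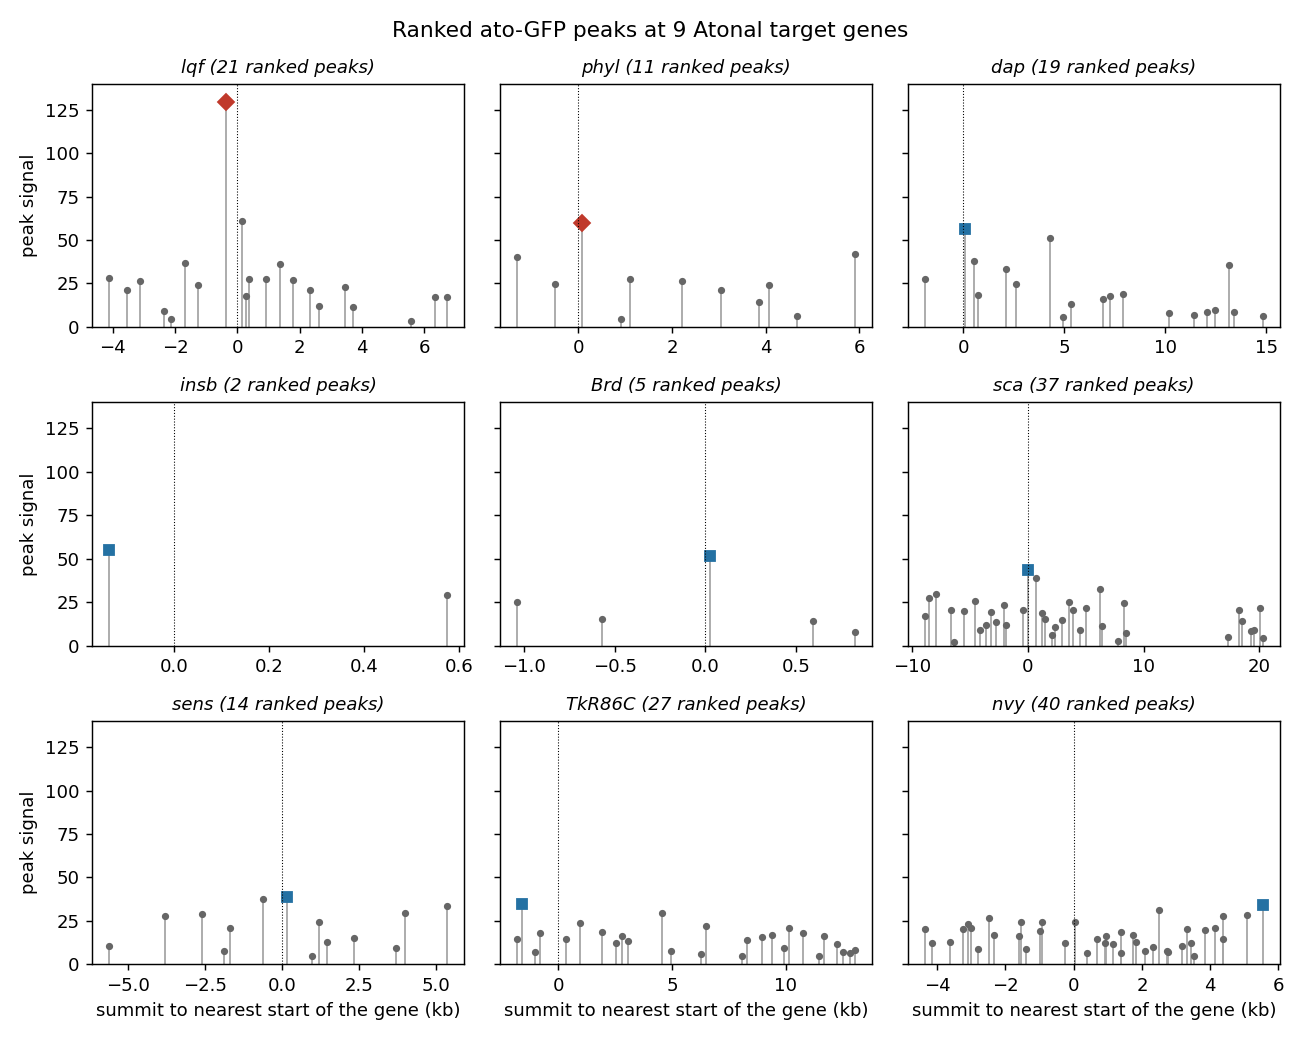
Signal of every ranked peak (vertical axis) against the distance of its summit from the nearest start of the gene in kb (horizontal axis, upstream negative), for the 9 target genes. Red diamonds are the strongest peaks at lqf (129.2) and phyl (59.7), which are in the conservative list, blue squares the strongest peaks of the other genes, and grey dots all other ranked peaks. No peak of the other 7 genes exceeded 56.5.

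The genes sens, insb and nvy are described first, and none of them had a conservative peak. The gene sens encodes Senseless, a zinc-finger factor that sustains proneural gene activity (FBgn0002573, 3L 13396228 to 13401125, minus strand). Its strongest ranked peak, at 3L 13400801 to 13401136, had a signal of 38.7 and its summit in the 5′ UTR, 156 bp past the start. Its rank was 12014 by signal and 87713 by IDR. The upstream peak printed above followed closely with 37.6, its summit 617 bp before the start. The downstream peak printed above had 33.7 and an IDR rank of 10014, with its summit 5355 bp past the start. The 3 sens peaks with better IDR ranks, 7729, 9817 and 9818, lay in a coding exon 980 to 1457 bp past the start, with signals of 12.8, 24.1 and 4.9. All 14 ranked peaks around sens lay between 4.9 and 38.7, so no single site stood out there.

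The gene insb, a nuclear inhibitor of Notch activity (FBgn0034224, 2R 17475214 to 17476272, minus strand), had 2 ranked peaks. The stronger, at 2R 17476242 to 17476577 with its summit 138 bp upstream of the start, had a signal of 55.2 and a -log10 IDR of 1.62, below the value of 2 that the conservative list requires. The other, in its coding exon, had 29.1. The gene nvy encodes a corepressor of the ETO family (FBgn0005636, 2R 24275734 to 24291084, plus strand). It had the most ranked peaks of the set, 40, and the lowest maximum, 34.0. That peak lay in a coding exon of nvy 5548 bp past its nearest start, and the nearest protein-coding start was that of Fatp3. The strongest nvy peak that was also nearest to its own start had 31.4, in an intron.

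The genes lqf, phyl, Brd and sca follow, and of these lqf and phyl had conservative peaks. This order serves the description only. The gene lqf encodes epsin, which is needed to internalise Notch ligands in the signalling cell (FBgn0028582, 3L 7528780 to 7540012, plus strand). Its peak, printed above, had a signal of 129.2, its summit in intergenic sequence 374 bp upstream of the start, and rank 811 of the 3009 conservative peaks. Replicate 1 gave 60.5 and replicate 2 gave 69.0 for the overlapping peak in their own lists, with summits 0 and 5 bp away. At 123 bp it was narrower than the strongest peaks of the other 8 genes, which were each 336 bp wide. A further ranked peak of 61.0 lay in the 5′ UTR, 154 bp past the start, and did not pass, with a -log10 IDR of 0.58. No other gene had a protein-coding start within 500 bp of the lqf summit.

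The gene phyl encodes Phyllopod, an adaptor that brings the repressor Tramtrack to the ubiquitin ligase Sina (FBgn0013725, 2R 14427336 to 14432337, minus strand). Its peak at 2R 14432092 to 14432427 had a signal of 59.7, with the summit in the 5′ UTR 77 bp past the start. It was a weak member of the conservative list, at rank 2588 of 3009, with a -log10 IDR of 2.07. Replicate 1 gave 25.7 and replicate 2 gave 36.5 in their ranked lists, and the peak was in the thresholded list of neither. The other 10 ranked peaks of phyl reached at most 42.1.

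The gene Brd encodes Bearded, a small inhibitor of the ligase Neuralized (FBgn0000216, 3L 14972667 to 14973198, plus strand). Its strongest peak, at 3L 14972526 to 14972861, had 51.5 and its summit in the 5′ UTR 27 bp past the start, while its other 4 ranked peaks reached at most 24.8. Replicate 1 gave 16.5 and replicate 2 gave 22.4 for it. The gene sca encodes Scabrous, a secreted fibrinogen-like protein that spaces precursors (FBgn0003326, 2R 12780541 to 12802010, plus strand). Its strongest peak, at 2R 12780370 to 12780705, had 43.7 and its summit 3 bp before the start. The next, with 38.7, lay in its coding exon 698 bp past the start. At both genes the strongest ranked peak thus lay at the start without reaching the conservative list.

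Of the remaining genes, dap encodes Dacapo, a cyclin-dependent kinase inhibitor that stops division (FBgn0010316, 2R 9712321 to 9716256, plus strand). Its peak at 2R 9712238 to 9712573 had 56.5, with the summit in the 5′ UTR 85 bp past the start and a -log10 IDR of 1.34. A peak of 50.9 assigned to dap lay 4315 bp past its start, in a coding exon of the neighbouring gene sqa. The gene TkR86C encodes a tachykinin-type neuropeptide receptor (FBgn0004841, 3R 10737592 to 10751228, minus strand). Its strongest peak, printed above, had 34.9 and its summit 1577 bp upstream of the nearest start. The strongest within the gene, in an intron, had 29.7.

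Set among all genes, lqf was high and the remainder spread from the percentile 31.7 at nvy to 77.7 at phyl. Over the 13501 protein-coding genes with a ranked peak, the strongest peak per gene had a median signal of 40.4 and quartiles of 31.6 and 56.5. The median of the 9 target genes was 51.5, and their median percentile among those genes was 70.3. The percentiles were 93.5 for lqf, 77.7 for phyl, 75.0 for dap, 74.0 for insb, 70.3 for Brd and 58.1 for sca, and 45.4 for sens, 34.3 for TkR86C and 31.7 for nvy. So 6 of 9 were above the median gene.

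**Figure D2:**
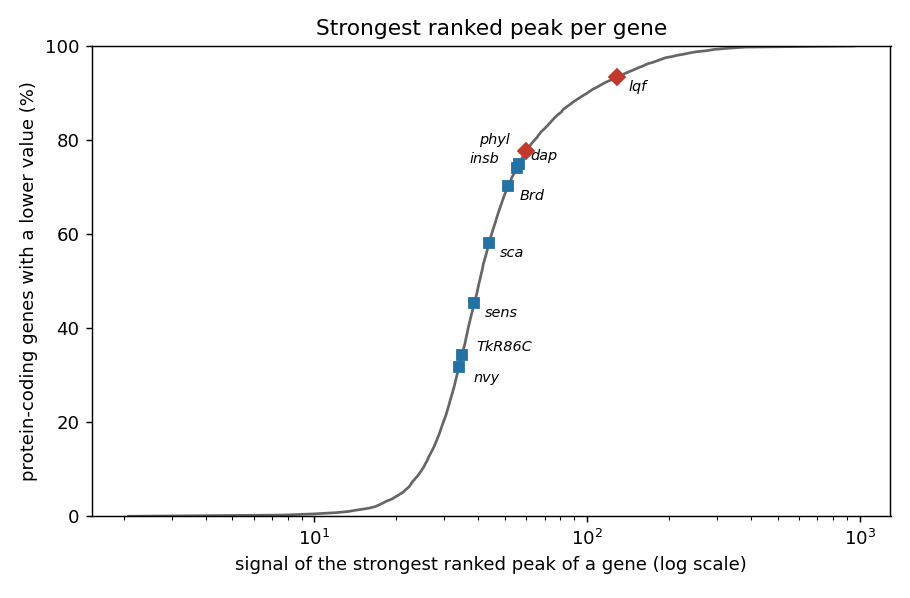
The grey curve gives, for each signal of a gene's strongest ranked peak (horizontal axis, log scale), the percent of protein-coding genes with a lower value (vertical axis). Squares and red diamonds (conservative peak) mark the 9 target genes, from nvy at 34.0 to lqf at 129.2.

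The loci of 7 of the 9 genes were longer than the median. The length of genome assigned to a gene had a median of 5.26 kb over all genes and of 15.8 kb over the target genes, from 2.75 kb for Brd to 30.7 kb for sca. Among the 500 genes nearest in this length, the percentile of sca was 42.8, of TkR86C 19.3 and of nvy 15.5. It was 93.1 for lqf and 74.9 for both phyl and Brd. The share of such genes with a conservative peak ran from 17.4% for the length of Brd to 24.8% for those of sca and TkR86C. Per kb of locus, nvy had 2.15 ranked peaks and insb 0.464, beside a median of 1.4 over all genes and 1.32 over the target genes. The high number of peaks at nvy therefore did not go with strong ones.

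The order among the target genes, apart from lqf at the top, differed between the replicates. The signals of a replicate's own list can be ranked only within that list. For the strongest replicate peak overlapping each gene's strongest ranked peak, lqf led in both, with rank 1117 of 118733 in replicate 1 and 702 of 141198 in replicate 2. Replicate 1 had insb next at 32.8, dap at 28.6 and phyl at 25.7, while replicate 2 had phyl next at 36.5, sca at 29.5 and sens at 27.3. For sens the ranks differed most, with 5.3 (rank 99010) in replicate 1, where the overlapping peak had its summit 243 bp away, and 27.3 (rank 6043) in replicate 2, 2 bp away. For nvy they gave 10.9 and 24.9, for TkR86C 15.5 and 20.6, and for sca 18.7 in replicate 1. In replicate 2 dap had 21.9 and insb 23.6. With 2 replicates that exchange places in this way, no order can be given to the 8 genes below lqf.

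Taking each replicate's own strongest peak per gene, the site was shared at 4 of 9 genes. At phyl, lqf, insb and Brd the strongest peak of each replicate overlapped that of the combined ranked list. At sens it lay 2641 bp upstream of the start in replicate 1 and 1181 bp past it, in a coding exon, in replicate 2. At TkR86C it lay 8983 bp past the nearest start in a coding exon in replicate 1 and 4557 bp past it in an intron in replicate 2. The percentile among all genes was higher in replicate 2 for 8 of the 9 genes, with insb the exception at 76.1 in replicate 1 and 47.5 in replicate 2. Neither this count nor that of shared sites has a share over all genes beside it. The median percentile of the set was 47.6 in replicate 1 and 71.2 in replicate 2. For lqf it was 91.4 and 94.6. For Brd both replicates, at 23.0 and 41.8, lay below the 70.3 of the combined list, and for nvy both, at 40.8 and 54.1, lay above its 31.7.

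**Figure D3:**
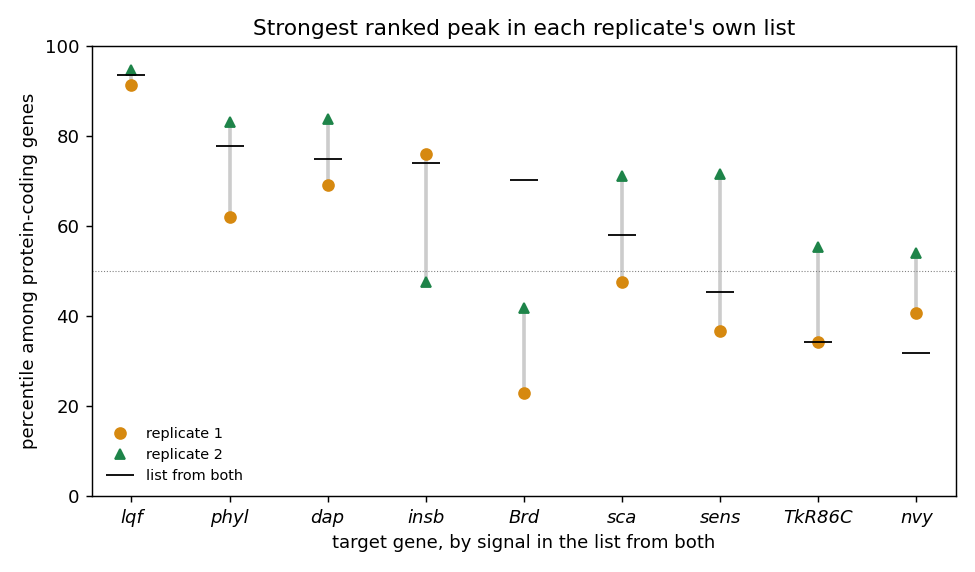
Percentile of each target gene's strongest ranked peak among protein-coding genes (vertical axis), in the list of replicate 1 (circles), of replicate 2 (triangles) and in the ranked list made from both (short horizontal lines), ordered by signal in the latter. The replicates lie close together at lqf (91.4 and 94.6) and far apart at sens (36.8 and 71.6).

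The strongest peaks of the target genes lay mostly at starts. The summit was within 500 bp of a protein-coding start at 7 of 9 genes, beside 47.1% over all genes with a ranked peak. All 7 were within that distance of the gene's own start, beside 45.0% over all genes, and TkR86C and nvy were the exceptions. Of the 9 summits 4 were in a 5′ UTR, 4 in intergenic sequence and that of nvy in a coding exon. Shares of these places over all genes are not given. With each replicate's own strongest peaks the count was 5 of 9 in either replicate, beside 47.4% of all genes in replicate 1 and 43.8% in replicate 2.

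E-boxes were counted at the same summits. Within 50 bp of the strongest summit 4 of 9 genes had CANNTG, beside 43.2% over all genes and 38.7% over the 3005 conservative summits on the chromosome arms. These were phyl and lqf with 1 E-box each and TkR86C and nvy with 2 each, while sens, sca, dap, insb and Brd had none. The Ato-type words searched were ACAGGTG and, with T first, TCAGGTG, then ACATGTG and, with T first, TCATGTG. Read on both strands, and each holding an E-box, they were in none of the 9 windows, beside 4.05% over all genes. The wider TkR86C stretch printed above held 2 of them, and no share over all genes is given for that width. Over all 176 ranked peaks of the 9 genes, 48.3% had an E-box and 4.55% an Ato-type word within 50 bp, beside 43.6% and 4.29% of all ranked peaks on the arms. At nvy 30 of 40 peaks had an E-box and 4 an Ato-type word, of 85 and 8 such peaks over the 9 genes. The pooled shares thus rest in large part on nvy.

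Other words were looked for in the same windows on both strands. AAATCA, the core bound by Senseless, lay at 2 of 9 summits, with 2 copies at sens and 1 at lqf, beside 7.10% over all genes and 8.25% of conservative summits. TATCGATA, the element bound by the promoter factor DREF and overlapping the site of the insulator protein BEAF-32, was searched after the lqf sequence was seen. It lay at the lqf summit alone of the 9, in the 2 copies printed above. Over all genes 4.97% of strongest summits had it, and 18.1% of conservative summits. A match describes the letters in the window and does not show which protein was bound.

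Genes that work with the targets were taken from 9 lists of partners, of which 41 genes are in the annotation. Of these, 16 (39.0%) had a conservative peak, beside 20.2% of all genes, and the median percentile of the 40 with a ranked peak was 73.4. These lists were drawn up with earlier results of these data known, so the count is a description. At 13 of the 16 the strongest conservative summit lay within 500 bp of a start of the gene, and at ato, da and cpo it lay farther. No share over all genes with a conservative peak is given beside this count. At da a stronger ranked peak of 58.8, not in the conservative list, lay 139 bp past a start. The strongest ranked peak of cpo, 62.0, was not in that list either, and it too lay farther than 500 bp from a start. At ato the conservative peak was the strongest ranked one.

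The partners of lqf had a conservative peak at 5 of 6 genes, beside 20.2% of all genes. Their list, too, was drawn up with earlier results known. These were shi, the dynamin gene, at 345.8, aux, the auxilin gene, at 288.0, mib1, a ligand ubiquitin ligase gene, at 213.4, neur, which encodes Neuralized, at 92.7, and Delta, which encodes a Notch ligand, at 82.6. The ligand gene Ser had none. The neur summit also lay in an intron of hyx. Of the partners of phyl, sina had 186.6 and ttk, the Tramtrack gene, 59.1, and ebi had none. The sina summit lay in an intron of Rh4, 55 bp upstream of the sina start.

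Of the family of Brd none of the 7 genes in the annotation had a conservative peak, beside 20.2% of all genes. The strongest peak at 6 of them ranged from the percentile 8.4 at Ocho to 61.2 at E(spl)malpha-BFM, with a median of 26.4, below the 70.3 of Brd. BobA, one of a cluster of near-identical copies, had no ranked peak, and its value is uncertain for that reason. On the nuclear side of Notch, Su(H), its transcription factor, had 167.8, while N, H and insv had none. Of the targets of dap, Cdk2 had 137.3 and CycE none. Gp150, which encodes a transmembrane protein that works with Scabrous, had 330.5, the percentile 99.5, beside 58.1 for sca. Tk and TkR99D, a ligand and a related receptor gene, had none.

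Of 10 proneural bHLH genes and their antagonists, 3 had a conservative peak, beside 20.2% of all genes. emc, an inhibitor of bHLH factors, had 136.8 with its summit 31 bp past its start. ato had 59.1, 3041 bp upstream of its start, and da had 57.4, in a coding exon 2950 bp past a start, both close to the 59.7 of phyl. Like the phyl peak, those of ato and da were in the thresholded list of neither replicate. The same held for the strongest conservative peaks of ttk, Delta, Traf4 and cpo. That of neur was in the list of replicate 1 alone. Of the other precursor genes, numb, a Notch inhibitor, had 118.5, Traf4 65.9 and cpo 59.2, the last 10178 bp from a start, while sens-2, pros and chn had none.

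**Figure D4:**
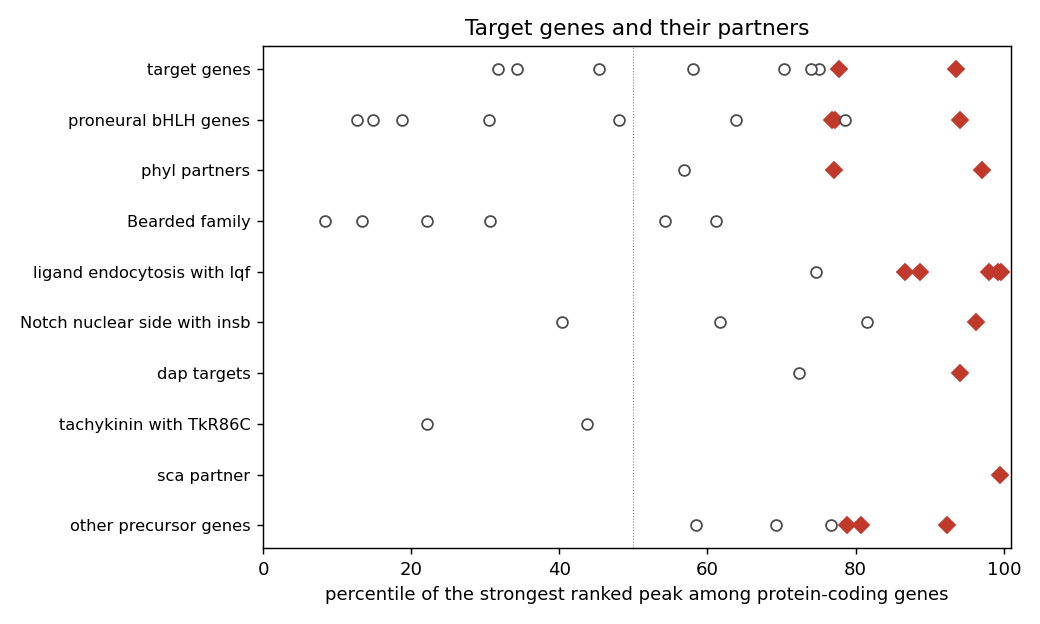
Percentile of the strongest ranked peak among protein-coding genes (horizontal axis) for the 9 target genes and each list of partners (rows). Red diamonds are genes with a conservative peak and open circles those without, and the dotted line is the median gene. The genes of ligand endocytosis lie between 74.6 and 99.6, those of the Bearded family between 8.4 and 61.2.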

How the data were processed

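Peaks were those the authors deposited on dm6, per the labels and the accompanying text files: 8 lists, a ranked and a thresholded one for each replicate and 2 of each kind made from both. The signal of a peak was deposited by the authors without its scale, and served only to rank and describe peaks within a list. The -log10 of the global IDR was deposited by the authors in the ranked lists. Aligner and caller: not given in the sources used here. The 4 columns of per-replicate signal in the combined ranked lists do not name a replicate and were not used. Genes came from Ensembl release 115, without transposable elements, and sequence from the RefSeq dm6 assembly.

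Summits were assigned as described, ties kept, with Python 3.11.15, numpy 2.4.6 and pandas 2.3.3. The interval given is a Wilson interval. The assignment and the motif search were tested on simulated data. With 1 group of 2 replicates no test over samples was possible, and counts are set beside all protein-coding genes. The genes named are the 9 members, the partners with a conservative peak, ato and da, and other genes nearest to a named summit. After values were seen, partners without a peak were named as well, and sqa, hyx and Rh4. The members and lists were chosen with earlier results of these data known. For 2 listed genes the symbol was updated (hry, Delta), and 2 others are not in the annotation. Alternatives were other lists, each replicate alone, other assignments, distances, windows and orders, and like locus length.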

Additional observations from a re-analysis of the deposited data

How the results depend on the processing

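The count of target genes with a conservative peak, 2 in the main list, was 1 in the second thresholded list made from both replicates, among the strongest 50% of peaks and for summits inside the gene, and 1 without replicate 1 or without replicate 2. It was 4 at an IDR of at most 0.05, an alternative added after the data were seen. It was 2 with nearest starts alone and with summits within 5000 bp. phyl was lost in every setting that gave 1 except for summits inside the gene, where lqf was lost because its summit is upstream. The gene found in both single-replicate lists, lqf, was no longer so with an overlap of 50% of both peaks, which left 0 genes, because its combined peak of 123 bp is narrower than those of replicate 1 (320 bp) and replicate 2 (284 bp). The median percentile of 70.3 ranged from 47.6 to 71.2 over the leave-one-out lists, and from 70.3 to 72.7 in the other settings. E-boxes were at 2 of 9 summits within 25 bp, beside 24.0% of all genes, and at 4 or 5 in the other settings. Within 100 bp they were at 5, beside 67.0% of all genes. Summits near a start numbered 5 to 7, and partners with a peak 11 to 18, within 1.5 times the main counts. No paired analysis was possible because there is 1 group. Unknown depth limits all negative results to these lists.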
